A study of Mus musculus with 11 samples.

Results

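The microRNAs (miRs) described here are mmu-miR-10a, mmu-miR-10b and mmu-miR-196b, guide strands whose genes lie among the Hox genes of the mouse. They were chosen by name: the guide strands of miR-10a, miR-10b, miR-196a and miR-196b were looked for among 517 miR assays, and 3 of the 4 had an assay. The guide strand of miR-196a was not analysed here. The 3 miRs were amplified in all 11 mice, and all 3 were among the 353 miRs that were tested.

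An array of PCR assays was run on total RNA of the entire aorta, with 1 female apoE-/- mouse per array. All mice, controls included, lacked apolipoprotein E, a protein that clears cholesterol-rich particles from the blood, and apoE-/- mice are a standard model of atherosclerosis. The control group held 4 mice on a regular diet, whose aortas are labelled as free of atherosclerosis. The high fat diet was made with 0.15% cholesterol, 21% crude fat and, as protein, 19.5% casein. It was given to 4 mice for 3 months and to 3 other mice for 10 months, and the aortas of both diet groups are labelled atherosclerotic. All mice are labelled as 6 to 8 weeks old, which reads as the age at the start. The treatment label of the 10-month mice gives 3 months, and the group was taken from the sample titles and the design text, although that text also gives 4 replicates for every group. The age of the controls when their aortas were taken is not given in the sources used here, so time on the diet and age cannot be told apart. The strain background is likewise not given. In whole tissue, fewer cells of a type and less RNA per cell cannot be told apart.

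As background, Hox genes are ordered along the chromosome and set position along the body axis, and the miRs encoded between them follow a similar positional pattern, which adult vessels partly keep. A miR guide strand pairs with messenger RNAs chiefly through its seed, the bases near its 5′ end, and lowers their translation or stability. In human aortic endothelial cells miR-10a is known to repress MAP3K7 and BTRC, regulators upstream of NF-kB, and in pigs it is known to be lower in the endothelium of aortic regions prone to atherosclerosis. miR-10b is known to repress the cholesterol exporters ABCA1 and ABCG1 in macrophages, and HOXD10 in human breast cancer cells. In the mouse miR-196 directs cleavage of the Hoxb8 messenger RNA.

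The mature sequences show how close the members are to each other. They are RefSeq sequences with coordinates on GRCm38.p6, written 5′ to 3′, with the seed (bases 2 to 8) in capitals.
miR-10a: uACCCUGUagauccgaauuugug
miR-10b: uACCCUGUagaaccgaauuugug
miR-196b: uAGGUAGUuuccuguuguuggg
miR-196a: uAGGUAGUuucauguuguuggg
Mature miR-10a lies at chr11:96317186-96317208 on the plus strand. Its gene is inside the span of Hoxb3, and the nearest coding genes on either side are Hoxb5 and Hoxb4. Mature miR-10b lies at chr2:74726074-74726096 on the plus strand, inside the spans of Hoxd3 and Hoxd4. Mature miR-196b lies at chr6:52230129-52230150 on the minus strand, between Hoxa9 and Hoxa10. miR-10a and miR-10b are both 23 bases long and equal at 22 of the 23 positions. Counted from the 5′ end, with the base of miR-10a first, they differ by U12A, outside the seed. Among 1679 mature mouse miR names in the RefSeq table, their seed ACCCUGU was found in these 2 alone. miR-196b and miR-196a are equal at 21 of 22 positions and differ by C12A, with the base of miR-196b first, and they alone share the seed AGGUAGU. The table does not show whether an assay for miR-10a or miR-10b also amplifies the other, so some shared signal between these near-identical sequences was not tested. The same holds for miR-196b and miR-196a.

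The relatives miR-100, miR-99a and miR-99b have another seed but share a stretch with a member. It starts inside the seed, at base 6 of the relative and base 7 of the member, and runs past it. These relatives are shown because base 11 in each stands where base 12 stands in the members.
miR-100: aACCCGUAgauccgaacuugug
miR-99a: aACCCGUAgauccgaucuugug
miR-99b: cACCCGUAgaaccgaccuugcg
miR-100 shares the 11 bases guagauccgaa with miR-10a, from base 7 of miR-10a, against 5 bases with miR-10b. The longest stretch that miR-99a shares with miR-10a is 10 bases. For miR-99b the longest shared stretch, also 10 bases, is with miR-10b. None of these relatives has the seed of a member.

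Values are threshold cycles, the PCR cycle at which a well's signal crosses a set level, and each further cycle means about 2 times less starting template. Across the 11 mice miR-10a crossed between cycles 19.4 and 22.7, miR-10b between 20.9 and 23.1, and miR-196b between 24.9 and 28.5. No well of these 3 assays was near the 35 cycles taken as the limit of detection. Levels are given below as log2 values relative to the array mean, taken over the 285 miRs that every mouse showed, so that 1 unit is a doubling. Levels of different assays are not compared, since assays may amplify with different efficiency. Between 322 and 380 of 517 miRs were detected per mouse. Replicate 2 of the 10-month group stood apart, with a mean cycle over the 285 miRs of 26.9 against 23.2 to 25.3 in the other 10 mice. Its small nuclear RNA U6 crossed at 17.65 against 11.05 to 14.93. Main results that rest on this mouse are given with and without it. Markers of the labelled tissue were present in every mouse: all 3 smooth muscle assays (miR-143, miR-145 and miR-145*) and both endothelial assays (miR-126-3p and miR-126-5p) were detected in 11 of 11. Such detection does not set the tissue apart. All 7 adipose and liver, all 4 kidney and all 4 leukocyte assays were also detected in every mouse. So were 5 of 7 epithelial and 5 of 7 neural assays.

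**Figure D1:**
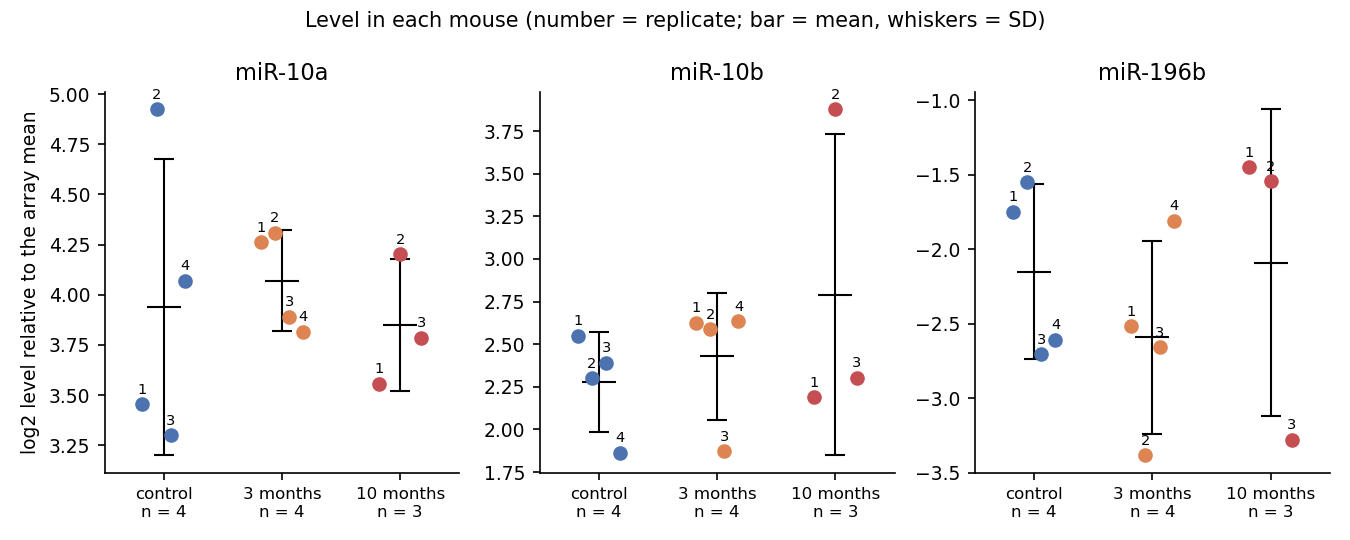
Log2 level of miR-10a, miR-10b and miR-196b relative to the array mean (y axis, a separate scale in each panel) in every mouse of the 3 diet groups (x axis); numbers are replicates, bars are group means and whiskers are SD. The groups overlap in every panel, and miR-10b of replicate 2 of the 10-month group, at 3.88, lies above the other 10 mice.

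No change of miR-10a with diet was detected at 3 or at 10 months, and its group means stayed within 0.22 log2 units of each other. In the 4 control mice its levels were 3.45, 4.92, 3.30 and 4.07, a mean of 3.94 ± 0.74 (SD, n = 4). After 3 months of high fat diet they were 4.26, 4.31, 3.89 and 3.82, a mean of 4.07 ± 0.25 (SD, n = 4). After 10 months they were 3.56, 4.20 and 3.79, a mean of 3.85 ± 0.33 (SD, n = 3). The highest and the lowest of the 11 values both came from control mice, so both diet groups lay inside the control range. The 3-month mean differed from control by 0.13 log2 units (SE 0.37, limma adjusted p = 0.94). The 95% interval ran from -0.70 to 0.96, which allows anything from 1.62 times lower to 1.95 times higher. At 10 months the difference from control was -0.09 (SE 0.40, limma adjusted p = 0.961), with an interval from -0.98 to 0.81, or from 1.98 times lower to 1.75 times higher. Between 10 and 3 months it was -0.22 (SE 0.40, 95% interval -1.12 to 0.68, limma adjusted p = 0.851). Both intervals against control lie inside a change of 2 times in either direction with the array mean as reference and all mice. This held under 14 of 27 alternatives at 3 months and 9 of 27 at 10 months, so the bound depends on the processing. With small-RNA control assays as reference the 3-month interval ran from -2.02 to 0.89, and without replicate 2 of the control group from -0.24 to 1.17.

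The 10-month mean of miR-10b was the highest of its 3 group means, but this rested on 1 mouse and did not pass the test. Its levels were 2.55, 2.30, 2.39 and 1.86 in control mice, a mean of 2.28 ± 0.29 (SD, n = 4). After 3 months they were 2.63, 2.59, 1.87 and 2.63, a mean of 2.43 ± 0.37 (SD, n = 4). After 10 months they were 2.19, 3.88 and 2.30, a mean of 2.79 ± 0.94 (SD, n = 3). Of the 10-month mice, replicates 1 and 3 lay within the control range, and replicate 2 was above every other mouse of the study. The difference between 10 months and control was 0.51 log2 units (SE 0.43, 95% interval -0.45 to 1.47, limma adjusted p = 0.675), a fold of 1.43. Without replicate 2 of the 10-month group it was -0.03 (SE 0.34, limma adjusted p = 0.96). Between 10 and 3 months the difference was 0.36 (SE 0.43, 95% interval -0.60 to 1.32, limma adjusted p = 0.733), and without that mouse -0.19 (SE 0.34, limma adjusted p = 0.858). At 3 months against control it was 0.15 (SE 0.40, 95% interval -0.74 to 1.04, limma adjusted p = 0.94).

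The unscaled cycles behind that level were as follows. In replicate 2 of the 10-month group miR-10b crossed at cycle 23.0, as late as in replicate 3 of the 3-month group (23.1) and replicate 2 of the controls (23.0). The array mean of that 10-month mouse was 26.9, against 24.9 and 25.3 in those other two. miR-10a of the same 10-month mouse crossed at 22.7, the latest of the 11 mice, and its centred level of 4.20 was inside the range of the other mice. In the deposited normalized values, scaled to the control assays snoRNA202 and snoRNA429, miR-10b of that mouse was at 3.34 cycles. The other mice lay between 4.95 and 7.12, where fewer cycles mean a higher level. Those control assays also crossed latest in that mouse. Whether the late cycles of this array bear on its miR-10b level was not tested.

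**Figure D2:**
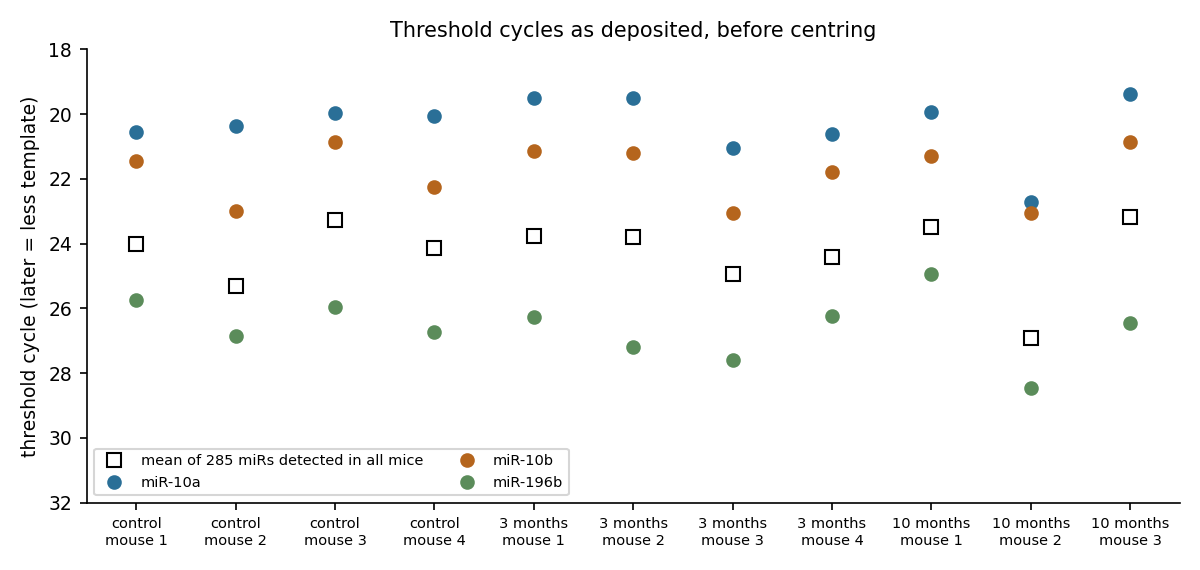
Deposited threshold cycles (y axis, later cycles lower down) of miR-10a, miR-10b and miR-196b in each of the 11 mice (x axis), with the array mean over the 285 miRs found in every mouse as open squares. In replicate 2 of the 10-month group the square falls to 26.9 while miR-10b stays at 23.0, 0.33 cycles after miR-10a.

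miR-196b was the most variable of the 3 and was not called in any comparison. Its control levels were -1.75, -1.55, -2.70 and -2.61, a mean of -2.15 ± 0.59 (SD, n = 4). After 3 months they were -2.52, -3.38, -2.66 and -1.81, a mean of -2.59 ± 0.65 (SD, n = 4). After 10 months they were -1.45, -1.54 and -3.28, a mean of -2.09 ± 1.03 (SD, n = 3). The highest value came from the 10-month group and the lowest from the 3-month group, and all groups overlapped. The difference from control was -0.44 at 3 months (SE 0.51, 95% interval -1.57 to 0.69, limma adjusted p = 0.851). At 10 months it was 0.06 (SE 0.55, 95% interval -1.15 to 1.28, limma adjusted p = 0.985), and -0.21 (SE 0.62, limma adjusted p = 0.919) without replicate 2 of that group. Between 10 and 3 months it was 0.50 (SE 0.55, 95% interval -0.72 to 1.72, limma adjusted p = 0.716). These intervals allow changes of miR-196b by more than 2 times in either direction at 10 months.

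The members were set beside all tested miRs. At 3 months against control 0% of the 353 miRs were called at a limma adjusted p under 0.05, with 30 at an unadjusted p under 0.05. At 10 months against control 4.53% were called, which is 16 miRs, 3 higher and 13 lower. With any 1 mouse left out this count lay between 1, without replicate 2 of the control group, and 12. Between 10 and 3 months 0% were called, with 46 at an unadjusted p under 0.05. None of the 3 members was called in any of the 3 comparisons, and their smallest unadjusted p over the 9 tests was 0.261. By unadjusted p miR-10a ranked 270 of 353 at 3 months and 305 of 353 at 10 months against control, and miR-10b ranked 264 and 136. All 3 members overlapped between the groups of every comparison, whereas some tested miRs had groups that did not overlap. These were 5.38% of miRs for 3 months and control, 15.9% for 10 months and control, and 12.2% for 10 and 3 months. The within-group SD was 0.50 for miR-10a, 0.55 for miR-10b and 0.74 for miR-196b, beside a median of 0.66 over the tested miRs and 0.56 over the 285 detected in every mouse, as the members were. Of these 285 miRs, 39.3% had a smaller SD than miR-10a, 48.8% than miR-10b and 69.5% than miR-196b.

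**Figure D3:**
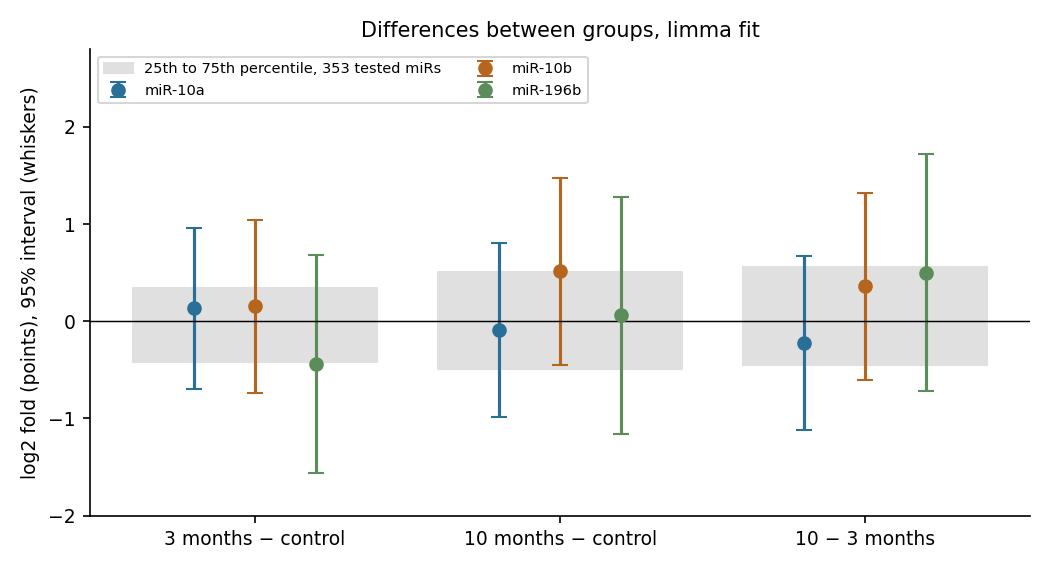
Log2 fold between groups (y axis) for miR-10a, miR-10b and miR-196b in the 3 comparisons (x axis), as points with 95% intervals from limma; the grey band spans the 25th to 75th percentile of the fold over all 353 tested miRs. Every interval crosses 0, and the points lie in the band or at its edge.

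Because miR-10a and miR-10b share a seed, their levels were also set against each other within each mouse. This difference between 2 assays has no meaning as an amount, but how it varies between mice does not depend on the centring. In control mice miR-10a minus miR-10b was 0.90, 2.62, 0.91 and 2.21 log2 units, a mean of 1.66 ± 0.89 (SD, n = 4). After 3 months it was 1.64, 1.72, 2.02 and 1.18, a mean of 1.64 ± 0.35 (SD, n = 4). After 10 months it was 1.37, 0.33 and 1.48, a mean of 1.06 ± 0.64 (SD, n = 3), and without replicate 2 the mean of the other 2 mice was 1.42. The balance of the pair thus varied over 0.33 to 2.62 log2 units among the 11 mice, with both extremes outside the 3-month group and all groups overlapping. Across the 11 mice the levels of miR-10a and miR-10b had a Pearson r of 0.148 (permutation p = 0.65) and a Spearman rho of 0.136 (permutation p = 0.695). With group means removed r was 0.213 (permutation p = 0.524). Without replicates 2 and 3 of the control group, the mice farthest from the median of miR-10a, r was 0.334 (permutation p = 0.409). Without replicate 2 of the 10-month group r was 0.0303 (permutation p = 0.933). This is the 1 relation across mice that was tested. The likeness to 284 other miRs given further on has no test.

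That correlation depended on the reference. With small nucleolar and nuclear RNA control assays in place of the array mean, r was 0.823 (permutation p = 0.00095), and with snoRNA202 and snoRNA429 or the deposited normalized values it was 0.689 (permutation p = 0.0111). Under those references all miRs of an array move with the control assays of that array. The part of that shared movement in the correlation was not tested, nor was that of any 1 mouse under those references. With quantile normalization r was -0.094, and with each assay block centred by itself -0.113.

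**Figure D4:**
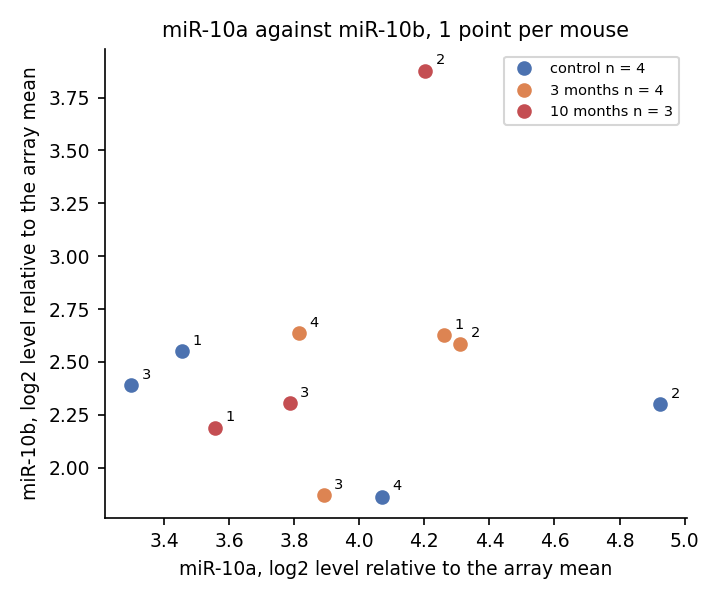
Level of miR-10b (y axis) against level of miR-10a (x axis), both log2 relative to the array mean, with 1 numbered point per mouse coloured by group. The points do not fall along a line (Pearson r 0.148 over 11 mice): replicate 2 of the control group is highest in miR-10a at 4.92, and replicate 2 of the 10-month group is highest in miR-10b at 3.88.

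The miRs most like miR-10a over the 11 mice, by Pearson r of the centred levels among the 284 other miRs detected in all mice, were miR-128a (r 0.787), miR-224 (r 0.781) and let-7g (r 0.76). Their r without replicate 2 of the 10-month group was 0.792, 0.787 and 0.776, with the arrays centred anew. For miR-10b they were miR-107 (r 0.809), miR-139-5p (r 0.75) and miR-350 (r 0.748). Without that mouse these were 0.616, 0.363 and 0.575, and the Spearman rho over all mice was 0.5, 0.473 and 0.573. The likeness of miR-10b to miR-139-5p therefore rested largely on replicate 2 of the 10-month group. For miR-10a, of all mice left out in turn, r was lowest without replicate 2 of the control group, the highest in miR-10a, at 0.752 with miR-128a, 0.617 with miR-224 and 0.525 with let-7g. Over all 27 alternatives r with miR-10a ran from 0.668 to 0.956 for miR-128a, from 0.617 to 0.956 for miR-224 and from 0.525 to 0.944 for let-7g. These are descriptions, since the miRs were picked as the highest of 284 and all share the arrays and the centring.

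Other strands of the same hairpins and of miR-615, encoded inside the span of Hoxc5, were assayed as well. miR-10a*, the passenger strand of miR-10a, and miR-615-5p were detected in 0 of 11 mice. miR-10b*, the passenger of miR-10b, was detected in 7 of 11 mice, which were 3 of 4 controls, 3 of 4 at 3 months and 1 of 3 at 10 months. It crossed between 25.5 and 27.7 where detected and gave no amplification in the others. miR-615-3p behaved alike, with 5 of 11 mice between 24.3 and 27.1. The passenger miR-196a* was detected in 6 of 11 mice, between 29.1 and 34.0 cycles. An assay that crosses before cycle 28 in some mice and does not amplify in others was not rare: 49 of 517 assays (9.48%) did so. In 21 of them, miR-10b* and miR-615-3p included, there was no well in between. Failed wells and missing template cannot be told apart in such assays. Of 8 assays on the Hox-cluster list, 5 passed the filter for testing. By limma's adjusted p 0 of 5 rose or fell in any comparison, beside at most 4.53% of all tested miRs. These 5 were the 3 members, miR-10b* and miR-196a*, so the list is not separate from the members. Relative to control its median log2 fold after 3 months was 0.15, the value of miR-10b, beside -0.05 over all tested miRs. After 10 months it was -0.09, the value of miR-10a, beside 0.00. Between 10 and 3 months it was -0.22, again the value of miR-10a, beside 0.06. miR-196a* passed the filter through the 3-month group alone, with 3 of 4 mice. Undetected wells were set to 35 cycles, also those behind the lowest 10-month fold of the list, -2.31 for miR-10b*.

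The relatives miR-99a, miR-99b, miR-100, miR-125a-5p and miR-125b-5p were all tested, and 0 of 5 rose and 0 of 5 fell in each comparison. Of all tested miRs at most 4.53% were called in a comparison, so 0 calls in lists this short say little. Relative to control the median log2 fold of the relatives was -0.17 after 3 months and -0.06 after 10 months, and it was -0.04 between 10 and 3 months. Of miRs linked to NF-kB signalling, the pathway that miR-10a restrains in human endothelium, 6 were tested (miR-146a, miR-146b, miR-147, miR-155, miR-21 and miR-9), and 0 passed the test. Relative to control this list had a median log2 fold of 0.55 after 3 months and 1.84 after 10 months. The medians over all tested miRs were -0.05 and 0.00. The smallest limma adjusted p of the list was 0.519 and 0.0533. At 10 months miR-146a was at 2.08, miR-146b at 1.86, miR-155 at 1.83 and miR-21 at 0.50, all detected in every mouse. The 10-month folds of the list ran from -0.05 to 3.43, with 5 positive and 1 negative. The highest was that of miR-147, which passed the filter through the 10-month group alone. It was detected in 1 of 4 controls, 2 of 4 mice at 3 months and 3 of 3 at 10 months. Its undetected wells were set to 35 cycles. Over the same mice the differences of miR-10a from control were 0.13 and -0.09, inside the spread between mice. Of miRs linked to cholesterol efflux, the process in which miR-10b acts in macrophages, 5 were tested and 0 rose or fell, with median log2 folds of 0.03 and 0.11 against control at 3 and 10 months.

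Marker lists of cell types were read in the same mice. The mean level over the smooth muscle assays lay between 4.41 and 5.37 per mouse, and that of the endothelial assays between 6.60 and 7.71. The endothelial mean was 6.81 ± 0.19 (SD, n = 4) in controls, 6.95 ± 0.27 (SD, n = 4) at 3 months and 7.43 ± 0.31 (SD, n = 3) at 10 months. Its 2 assays differed: against control the log2 fold of miR-126-3p was 0.55 at 3 months and 1.03 at 10 months. That of miR-126-5p, from the same hairpin, was -0.27 and 0.20. Between 10 and 3 months the 2 folds were close, at 0.47 and 0.48, and neither was called. The leukocyte mean (miR-142-3p, miR-142-5p, miR-150 and miR-223) was 2.64 ± 0.24 (SD, n = 4), 2.37 ± 0.29 (SD, n = 4) and 3.29 ± 0.69 (SD, n = 3). Against control these 4 miRs did not move together. Their log2 folds against control ran from -1.37 (miR-142-3p) to 0.46 (miR-150) at 3 months, with 2 positive and 2 negative. At 10 months they ran from -0.14 (miR-142-3p) to 1.49 (miR-150), with 3 positive and 1 negative. Between 10 and 3 months all 4 were positive, from 0.58 to 1.22, with a smallest limma adjusted p of 0.243. Their median there was 0.94, beside 0.06 over all tested miRs. Over 9 marker lists with 39 tested miRs, 0 rose and 0 fell in each comparison. Of all tested miRs at most 4.53% were called in a comparison, so 0 calls say little about these lists. The smallest limma adjusted p of the lists was 0.0961, at 10 months against control. It belonged to miR-1, a miR of striated muscle, with a log2 fold of -1.87 (SE 0.57) and groups that did not overlap. The list of striated muscle did not share this shift. Its 4 tested miRs had a median log2 fold of 0.0049 in that comparison, with 2 positive and 2 negative. miR-133a was at 0.25 and miR-133b at -0.24, and the highest fold of the list was 0.30. The erythroid list had 2 tested miRs, which went opposite ways, so their median describes neither. After 3 months the log2 fold relative to control was -0.48 for miR-451 and 4.73 for miR-486. After 10 months the 2 folds were -0.42 and 1.66. miR-486 was detected in 2 of 4 controls, 4 of 4 mice at 3 months and 2 of 3 at 10 months. It passed the filter through the 3-month group alone, and its undetected wells were set to 35 cycles. The part of cell makeup in the members' levels was not tested.

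The direction of the small differences of miR-10a from control changed with the choice of reference and with single mice left out. Over 8 ways of scaling the arrays, the median log2 fold of all tested miRs itself moved between -0.75 and 0.04 at 3 months and between -0.35 and 0.25 at 10 months against control. Relative to that median, miR-10a lay between -0.04 and 0.19 at 3 months and between -0.27 and -0.07 at 10 months. miR-10b lay between 0.13 and 0.21 at 3 months and between 0.51 and 0.56 at 10 months. miR-196b lay between -0.46 and -0.38 at 3 months and between 0.05 and 0.09 at 10 months. These 8 scalings shift whole arrays and largely cancel once the median is subtracted, so their narrow ranges do not show stability. Without replicate 2 of the 10-month group the 10-month values relative to the median were -0.10 for miR-10b and -0.28 for miR-196b. With array weights miR-10b was at 0.08, and miR-196b was at -0.04 with a limit of 32 cycles and -0.24 with no filter. Without replicate 2 of the control group miR-10a was at 0.21. The limma adjusted p of the members stayed between 0.345 and 1 under all 27 alternatives.

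**Figure D5:**
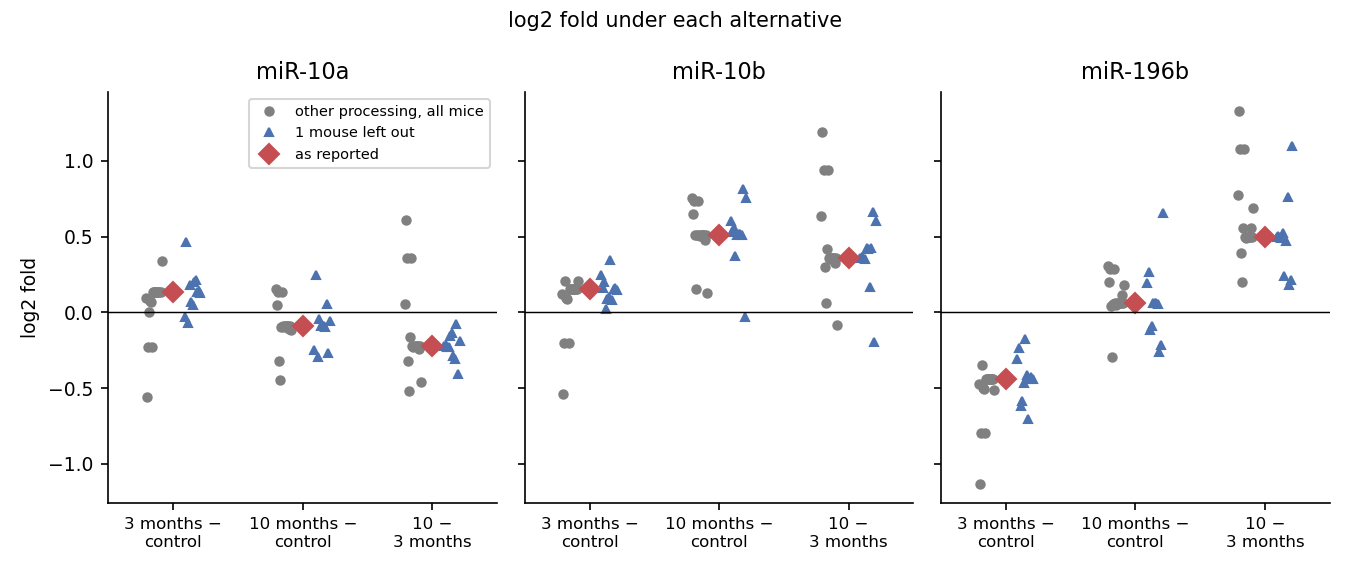
Log2 fold (y axis) of miR-10a, miR-10b and miR-196b in the 3 comparisons (x axis) as reported (red diamonds), under other processing of all mice (grey points) and with 1 mouse left out (blue triangles). Many values of miR-10a fall on either side of 0, and for miR-10b at 10 months against control the lowest triangle, at -0.03, is the one without replicate 2 of the 10-month group.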

How the data were processed

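Per the labels, RNA from the whole aorta of 11 mice was extracted with the mirVana kit. The authors deposited threshold cycles on a reversed log2 scale, in 530 rows: 517 miR assays in blocks of 335 and 182, and 13 control wells. Wells at 40 hold no amplification, judging from the values. A second deposited log2 table equals the cycle minus the mean of snoRNA202 and snoRNA429, to within 5e-05 cycles. Of the instrument and software nothing is stated in the labels.

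The level was minus the cycle, with wells at 35 or later set to 35, centred per array on the 285 miRs detected in all mice. miRs detected in at least 3 mice of at least 1 group were tested, 353 in all, in 1 limma fit of the 3 groups (limma 3.58.1, R 4.3.3, 8 residual degrees of freedom), two-sided, with Benjamini-Hochberg adjustment over the 353. The correlation used 100000 resamples (scipy 1.17.1). A doubling per cycle was assumed. The fit was tested on simulated data. The number of mice limits the precision. No 2 samples held identical values.

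Replicate numbers were not treated as pairs in the main fit. Same-numbered deviations had r from -0.131 to 0.302 over 10 pairs. Differently numbered mice were not compared in this way, so these values cannot show whether the numbers pair the mice. The named miRs are the members, the 3 miRs most like miR-10a and miR-10b each, and the fixed lists. Not all list miRs that this rule names are given a value. The members and lists were chosen with earlier results of these data known. Of the 17 kinds of alternative tried, the closing section gives those that changed a sign, a call or a count.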

Additional observations from a re-analysis of the deposited data

Results flagged for a closer look

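The level of miR-10b in replicate 3 of the 3-month group, 1.87, lay apart from the other 3 mice of its group, which were at 2.59 to 2.63. Its gap to the nearest mouse was 0.937 of the group's range, above Dixon's critical value for 4 samples. Of 30 groups of 4 mice checked, 1 was singled out in this way, and chance gives about 1 in 20. The same mouse was not apart in miR-10a, at 3.89.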

How the results depend on the processing

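No member was called under any of the 27 alternatives, which include each mouse left out. Signs of small differences turned. For miR-10a the 3-month difference from control was -0.56 when small-RNA control assays set the reference and -0.22 with snoRNA202 and snoRNA429 or the deposited values. Its 10-month difference was 0.15 with the array median, 0.049 with small-RNA assays and 0.13 with snoRNA202 and snoRNA429 or the deposited values. Its difference between 10 and 3 months was 0.0554, 0.61 and 0.36 in the same order. For miR-10b the 3-month difference was -0.54 with small-RNA assays and -0.20 with both others, and the difference between 10 and 3 months was -0.0795 with array weights. For miR-196b the 10-month difference was -0.30 without normalization. The correlation of miR-10a with miR-10b was 0.823 with small-RNA assays, 0.689 with snoRNA202 and snoRNA429 or the deposited values, -0.094 with quantile normalization and -0.113 with each block centred.

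With each mouse left out in turn, miR-10a ranged from -0.0719 to 0.46 at 3 months, -0.30 to 0.25 at 10 months and -0.41 to -0.07 between them. miR-10b ranged from 0.02 to 0.35, -0.0292 to 0.81 and -0.19 to 0.66, and miR-196b from -0.70 to -0.18, -0.26 to 0.66 and 0.18 to 1.10. The count of called miRs ranged from 0 to 1 at 3 months and from 1 to 12 at 10 months.

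The 16 miRs called at 10 months became 0 with small-RNA assays, snoRNA202 and snoRNA429, no normalization, the deposited values or only the 2 groups, 29 with only miRs detected in every mouse, 1 with no filter, 6 with the replicate block and 25 with array weights. Between 10 and 3 months the 0 called became 4 with quantile normalization, 5 with blocks centred, 6 with a common floor, 1 with the deposited values or a variance trend, and 10 with array weights. A limit of 32 cycles and undetected wells left missing turned no member's sign. The replicate block changed no member's call. The causes were not tested.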
